A study of Mus musculus with 6 samples.

Results

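The cell cycle and mitosis genes were 50 named mouse genes, a subset of the 22380 protein-coding genes of the annotation, and were examined for peaks of the Notch effector RBPJ. A gene was counted as having a peak when the centre of a peak lay inside the gene or within 10 kb of either end. All 50 genes were found in the annotation by name, and the remaining 22330 protein-coding genes served as the background. RBPJ was immunoprecipitated from F9 cells, a mouse embryonic carcinoma line derived from a testicular teratoma, with a custom rabbit antibody, and the recovered DNA was sequenced. Asynchronous cells were an untreated cycling population, of which 95% were in interphase and 5% in mitosis. Mitotic cells were collected after 4 hours in 1 µg/ml nocodazole, a drug that depolymerizes microtubules and arrests cells in mitosis. The comparison addressed where RBPJ occupied chromatin in interphase and in mitosis.

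RBPJ binds DNA through a short consensus and recruits either corepressors or, when Notch is activated, the Notch intracellular domain and coactivators. Progression through the cell cycle is driven by cyclins and their kinases, restrained by inhibitors and by the retinoblastoma protein, and ordered by replication licensing, the spindle checkpoint and the proteolysis that starts anaphase. Nocodazole-arrested cells are held before anaphase, with the spindle checkpoint active.

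The asynchronous list held 5206 peaks of 173 bp and the mitotic list 3227 peaks of 203 bp. Each peak had a score, which ran from 10.1 to 58.3 in the asynchronous list and from 10.2 to 282.5 in the mitotic list. There was 1 list per population, so differences between the populations had no replicate check, and scores were not compared between lists. Most scores lay close to the floor. In the asynchronous list 53.8% of peaks, and in the mitotic list 79.5%, were within 20% of the lowest score.

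Among the cell cycle and mitosis genes, 17 of 50 had an asynchronous peak (34%, exact Clopper-Pearson 95% interval 21.2 to 48.8%), beside 21.4% of the other protein-coding genes. A mitotic peak was present at 8 of 50 genes (16%, interval 7.17 to 29.1%), beside 12.4% of the other genes. Both intervals included the background share, the asynchronous one narrowly. These intervals cover counting error over genes only, and neighbouring genes can share a peak. With gene spans alone the asynchronous share was 10%, beside 9.06%, and the mitotic share 6%, beside 6.01%. The median span was 16.2 kb for the listed genes and 15.4 kb for the others. The number of other coding gene starts inside the window had medians of 1 and 0 and means of 0.78 and 0.649, respectively.

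**Figure D1:**
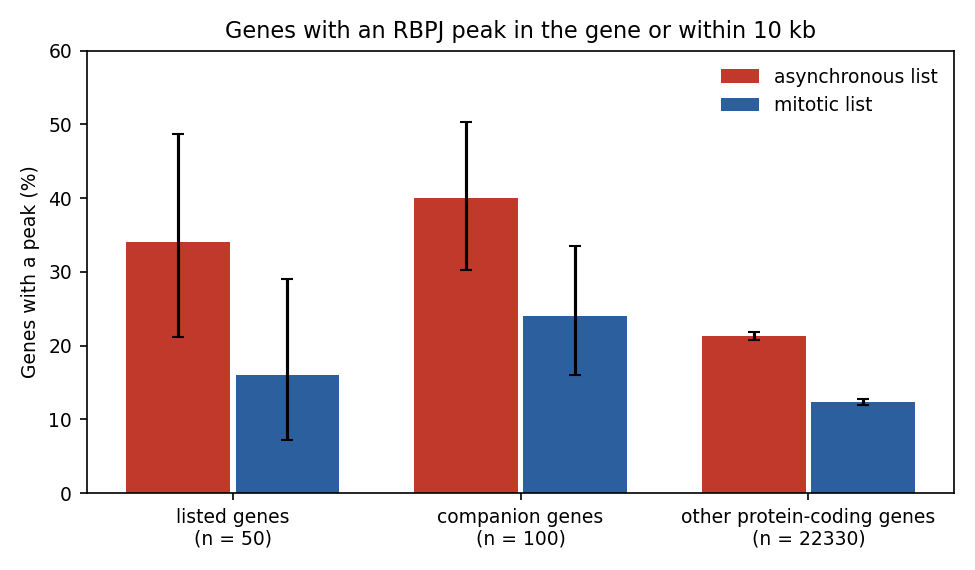
Percentage of genes with a peak centre in the gene or within 10 kb, in the asynchronous (red) and mitotic (blue) lists. Groups are the listed cell cycle and mitosis genes, the companion cell cycle genes and the other protein-coding genes, which include the companion genes. Error bars are exact 95% intervals. The listed genes stood at 34% and 16%, and the other genes at 21.4% and 12.4%.

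Peaks in both lists were found at 4 listed genes, Cdk4, Cdkn1b, Cdc25c and Mcm7 (8%, interval 2.22 to 19.2%), beside 6.33% of the other genes. A further 13 genes (26%) had peaks in the asynchronous list alone, beside 15% of the other genes. Cdkn1a, Incenp, Mcm2 and Rb1 had a peak in the mitotic list alone (8%), beside 6.05% of the other genes. The other 29 genes (58%, interval 43.2 to 71.8%) had a peak in neither list, beside 72.6% of the other genes. Put the other way, 21 genes (42%, interval 28.2 to 56.8%) had a peak in at least 1 list, beside 27.4%. That interval missed the background share narrowly and included it under 11 of 14 settings, such as a background without olfactory and vomeronasal receptor genes (29.2%), a setting chosen after seeing the data. Of the 17 listed genes with an asynchronous peak, 4 also had a mitotic peak (23.5%, interval 6.81 to 49.9%), beside 29.6% of the other genes with an asynchronous peak. Seen from the mitotic list, 4 of 8 listed genes had an asynchronous peak (50%), beside 51.1% of the other genes.

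By role, the G1 cyclins and kinases had the most genes with a peak in at least 1 list, 6 of 8, beside the 27.4% of other genes. None of the 4 mitotic cyclin and Cdk1 genes (Ccna2, Ccnb1, Ccnb2 and Cdk1), which drive entry into mitosis, had a peak in either list. The same held for the 3 chromosome structure genes, the condensin subunits Smc2 and Smc4 and the topoisomerase Top2a. The groups held 3 to 8 genes each, too few to read any count, high or 0, as a property of a role. The background share was 27.4%, and no difference between roles was tested. The G1 group was singled out as the highest of the 9. Among its genes, Cdk2 was counted only through a peak nearest to the start of Rab5b. Ccnd2 and Cdk6 were counted only through peaks with the lowest score of the list, 10.1.

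**Figure D2:**
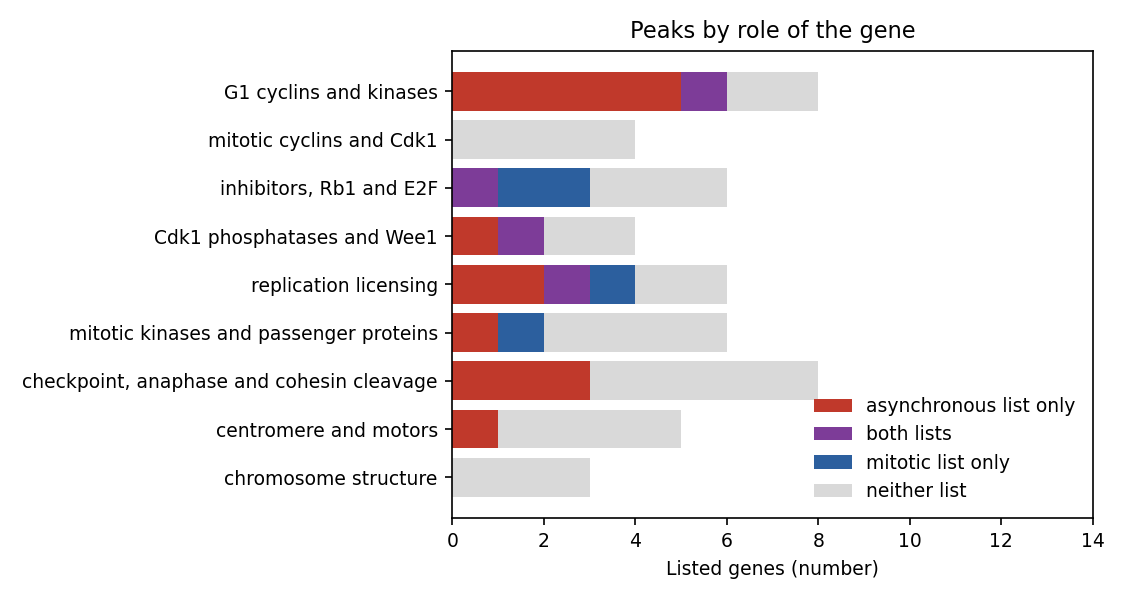
Number of listed genes in each of 9 role groups with a peak in the asynchronous list only (red), both lists (purple), the mitotic list only (blue) or neither (grey). The G1 group held 6 genes with a peak of 8, and the mitotic cyclin and chromosome structure groups held none.

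The sequences of 8 peaks are given because they hold the RBPJ consensus, the highest score at a listed gene, 2 copies of its shorter form TTCCCA (Mcm7), or overlap with a peak of the other list, which at Cdk4 was 1 bp between adjoining peaks. All are from the forward strand of NCBIM37 (mm9), and capitals mark TTCCCACA, TTCCCACG or the shorter TTCCCA that both contain, or their reverse complements. The Ccnd3 peak lies at chr17:47708452-47708624 in an intron, the Cdk6 peak at chr5:3342395-3342567 upstream of the gene, and the Kif23 peak at chr9:61762489-61762661 in the promoter of the neighbouring Rplp1. The Cdk2 peak is at chr10:128133502-128133674 in the promoter of Rab5b, and the Mcm7 peak at chr5:138597010-138597182 in the promoter of Zfp113. The asynchronous and mitotic Cdk4 peaks are at chr10:126500361-126500533 and chr10:126500159-126500361, both in the Cdk4 promoter, and the asynchronous Cdkn1b peak is at chr6:134878581-134878753, in an intergenic stretch beyond the gene.
Ccnd3 asynchronous peak: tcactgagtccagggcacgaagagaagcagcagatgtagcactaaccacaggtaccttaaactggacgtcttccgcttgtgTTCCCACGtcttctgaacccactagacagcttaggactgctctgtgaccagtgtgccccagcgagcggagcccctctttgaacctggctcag
Cdk6 asynchronous peak: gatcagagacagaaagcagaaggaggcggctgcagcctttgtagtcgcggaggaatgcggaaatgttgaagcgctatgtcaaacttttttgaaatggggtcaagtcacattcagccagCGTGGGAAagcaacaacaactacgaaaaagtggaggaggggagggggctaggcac
Kif23 asynchronous peak: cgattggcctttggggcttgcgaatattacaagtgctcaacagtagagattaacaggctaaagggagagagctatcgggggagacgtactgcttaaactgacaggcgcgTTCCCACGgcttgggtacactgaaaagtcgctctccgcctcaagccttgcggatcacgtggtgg
Cdk2 asynchronous peak: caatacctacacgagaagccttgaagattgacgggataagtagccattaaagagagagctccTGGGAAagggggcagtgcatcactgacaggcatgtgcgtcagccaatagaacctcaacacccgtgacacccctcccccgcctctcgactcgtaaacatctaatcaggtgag
Mcm7 asynchronous peak: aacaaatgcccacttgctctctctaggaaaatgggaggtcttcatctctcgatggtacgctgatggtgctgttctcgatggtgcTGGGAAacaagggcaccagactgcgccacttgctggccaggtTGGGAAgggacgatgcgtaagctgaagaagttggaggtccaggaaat
Cdk4 asynchronous peak: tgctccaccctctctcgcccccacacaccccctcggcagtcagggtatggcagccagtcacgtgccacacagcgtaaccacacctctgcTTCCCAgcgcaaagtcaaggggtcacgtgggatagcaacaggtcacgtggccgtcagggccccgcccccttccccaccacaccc
Cdk4 mitotic peak: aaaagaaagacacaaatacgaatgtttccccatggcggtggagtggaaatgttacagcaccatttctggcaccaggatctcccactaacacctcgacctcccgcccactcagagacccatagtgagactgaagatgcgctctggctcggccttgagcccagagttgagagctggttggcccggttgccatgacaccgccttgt
Cdkn1b asynchronous peak: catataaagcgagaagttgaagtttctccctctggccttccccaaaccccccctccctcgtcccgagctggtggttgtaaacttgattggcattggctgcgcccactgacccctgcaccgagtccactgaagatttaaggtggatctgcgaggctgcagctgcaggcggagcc

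The D-type cyclins, which activate Cdk4 and Cdk6 in response to growth signals, had asynchronous peaks at 3 of 3 genes and mitotic peaks at 0 of 3, beside 21.4% and 12.4% of the other genes. With 3 genes these counts are a description only, and Ccnd3 spans 94.6 kb. Ccnd3 had 4, the most asynchronous peaks of any listed gene. Its highest had a score of 16 (rank 645 of 5206) in an intron, and a second intronic peak with a score of 13.1 (rank 1570) held TTCCCACG across its centre, as printed. The other Ccnd3 peaks had scores of 11.8 and 10.6, the former 191 bp upstream of the neighbouring gene Taf8. The Ccnd1 peak, with a score of 12.7 (rank 1813), was exonic, at chr7:152117839-152118011. Ccnd2 had an exonic peak at the floor of the list, with a score of 10.1 (rank 4458), at chr6:127080330-127080502.

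Cdk2, the kinase partner of the E-type cyclins, had the highest score of any peak at a listed gene, 24.9 (rank 91). That peak was 1407 bp outside Cdk2 and 264 bp upstream of Rab5b, a regulator of endocytic traffic, so it was nearer to the start of the neighbour. At Cdk6 the peak was 1412 bp upstream of the start, with a score of 10.1, and held TTCCCACG on the reverse strand. The E-type cyclins themselves, Ccne1 and Ccne2, had no peak.

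Cdk4 was the listed gene with the most peaks in the mitotic list, 3, and had 2 in the asynchronous list. In its promoter the asynchronous peak was centred 143 bp upstream of the start (score 12.2, rank 2120). A mitotic peak was centred 330 bp upstream (score 10.9, rank 1099), and the intervals shared 1 bp with centres 187 bp apart. The mitotic peak with the highest score at a listed gene, 12.4 (rank 433 of 3227), was in an exon 158 bp downstream of a Cdk4 start, at chr10:126501411-126501613. The remaining asynchronous peak lay 39 bp from the start of Tspan31, and the remaining mitotic peak was nearest to Agap2.

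**Figure D3:**
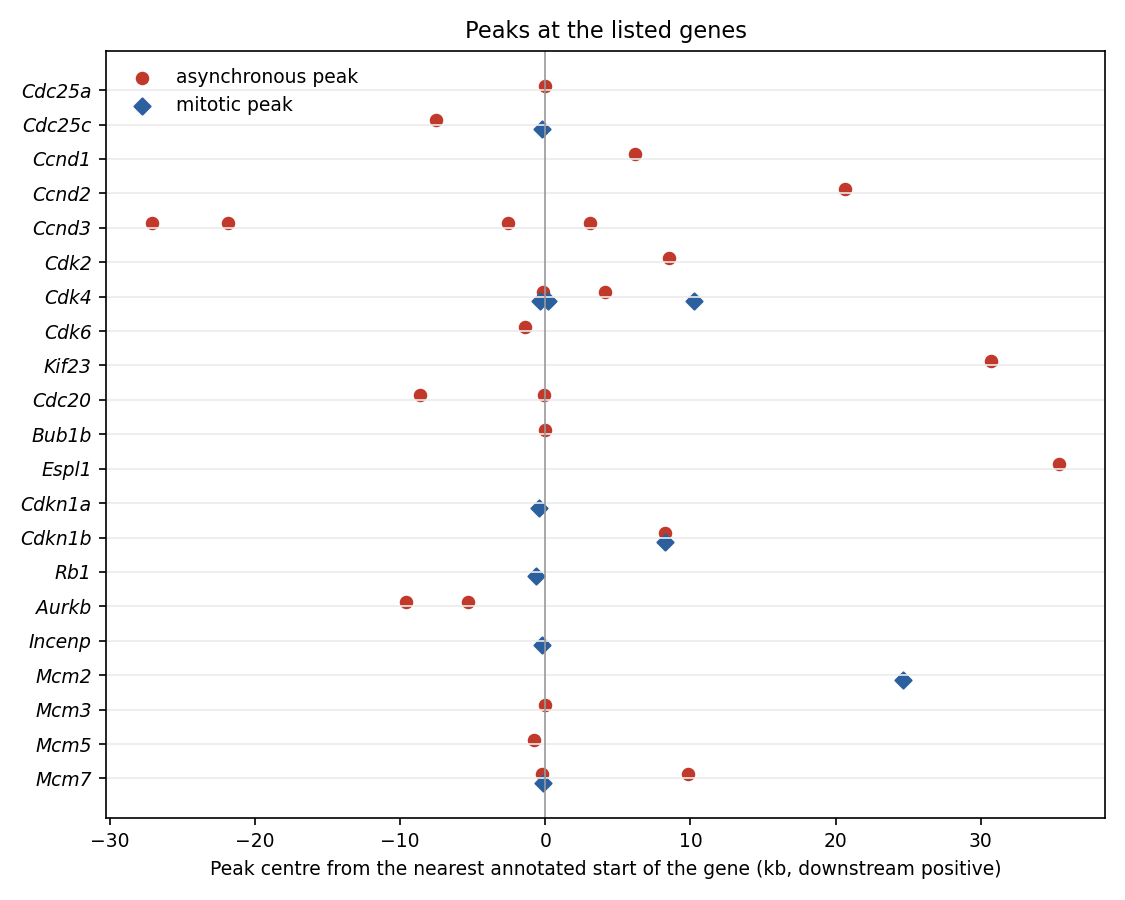
Distance of each peak centre from the nearest annotated start of the gene (kb), for the 21 listed genes with a peak, in the asynchronous (circles) and mitotic (diamonds) lists. Mitotic peaks at Cdkn1a, Incenp, Rb1 and Cdc25c lay within 1 kb of the start, and those of Cdkn1b and Mcm2 lay farther away.

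Among the inhibitors, Cdkn1b, which binds and restrains G1 cyclin-kinase complexes, had the most closely placed pair of peaks. The asynchronous peak (score 15.6, rank 740) and the mitotic peak (score 11.6, rank 662) overlapped by 160 bp with centres 28 bp apart, 3136 and 3108 bp beyond the gene. Neither held TTCCCA. Cdkn1a, the inhibitor induced by p53, had a mitotic peak 442 bp upstream of a start (score 10.9) at chr17:29230174-29230376, and its nearest asynchronous centre was 17.8 kb outside the gene. Rb1, whose product holds E2F factors inactive, had a mitotic peak 657 bp upstream (score 11.6) at chr14:73726185-73726387, with TTCCCA in it. Cdkn2c, E2f1 and E2f3 had no peak.

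Of the Cdk1 phosphatases, Cdc25a had an asynchronous peak 50 bp upstream of its start (score 14.4, rank 1056) at chr9:109777947-109778119. Cdc25c had a mitotic peak 210 bp upstream of its start (score 10.2, rank 1852). Its asynchronous peak (score 12.7) was 7526 bp away and 153 bp from the start of Fam53c, so the peaks were 7316 bp apart and did not overlap. Cdc25b and the opposing kinase Wee1 had none.

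The Mcm proteins form the replicative helicase that is loaded at origins in G1. Mcm7 had a pair of overlapping peaks, 131 bp in common with centres 57 bp apart, with scores of 11 (rank 3278) and 10.9 (rank 1099) in the asynchronous and mitotic lists. They lay within the Mcm7 span, 193 and 136 bp upstream of an Mcm7 start and 6 and 48 bp from the start of Ap4m1. A second asynchronous peak (score 17.3, rank 450), with 2 copies of TTCCCA, was 124 bp upstream of Zfp113. Mcm3 had a peak 25 bp upstream of its start (score 10.1) and Mcm5 had one 789 bp upstream (score 11.8), both asynchronous. The mitotic peak counted for Mcm2 was 9353 bp outside it and 77 bp upstream of Podxl2. Mcm6 and Cdc6 had no peak.

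For the mitotic kinases and passenger proteins, Aurkb and Incenp, subunits of the chromosomal passenger complex, differed in the list. Aurkb had asynchronous peaks 5287 and 9600 bp upstream (scores 13.1 and 12.7). The farther one was nearest to the start of the neighbouring gene 1500010J02Rik, 1168 bp away. Incenp had a mitotic peak 202 bp upstream (score 11.6, rank 662) at chr19:9974124-9974326. Plk1, Plk4, Aurka and Birc5 had no peak within reach.

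Cdc20, which activates the anaphase-promoting complex, had an asynchronous peak 71 bp upstream of its start (score 16, rank 645) at chr4:118109942-118110114 and a second 8610 bp upstream (score 13.5). Bub1b, a spindle checkpoint kinase, had one 6 bp from its start with the lowest score in the list, 10.1. The peak counted for Espl1, the protease that cleaves cohesin, was 7342 bp outside it and 11 bp upstream of Myg1. Kif23, a kinesin of the central spindle, had only the printed peak (score 10.1) near Rplp1. No peak was counted for the checkpoint and anaphase genes Bub1, Bub3, Mad2l1, Ttk and Pttg1, the centromere genes Cenpa, Cenpe and Cenpf, or the spindle motor gene Kif11.

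The reach of the rule therefore took in neighbours. Of the 24 asynchronous peaks, 9 were nearest to the start of another coding gene, as were 3 of the 10 mitotic peaks. Peaks in the promoter of the listed gene itself, meaning the 1 kb before a start and the 100 bp after it, were present at 7 genes in the asynchronous list (14%, interval 5.82 to 26.7%, beside 7.48% of the other genes). In the mitotic list they were present at 6 genes, Cdk4, Cdkn1a, Cdc25c, Incenp, Mcm7 and Rb1 (12%, interval 4.53 to 24.3%, beside 2.93%). The mitotic interval here lay above the background share, unlike that of the 10 kb reach. This promoter window was chosen after the data were seen, and the Mcm7 peaks in it were nearer to the start of Ap4m1. Mitotic peaks at the listed genes had a median of 9.5 CpG dinucleotides, against 4 over all mitotic peaks. In the asynchronous list these medians were 7 and 5. Of the 10 mitotic peaks at the listed genes 70% were in a promoter, of the listed gene or a neighbour (interval 34.8 to 93.3%). The share over all mitotic peaks was 20.4%. In the asynchronous list these shares were 58.3% and 31.3%. The rule leaves out peaks far from genes, which all peaks of a list include. The promoter differences are therefore partly set by the rule, and its part in the CpG medians was not tested. The part of CpG content in the promoter counts was not tested.

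Of the genes outside the reach, Cdc6, which helps load the helicase, was the closest in both lists, with centres 13.5 kb away. It was followed in the asynchronous list by Cdkn1a and by Smc2 at 29.4 kb, and in the mitotic list by Espl1 at 13.6 kb and Cdc25b at 17.9 kb. By the nearest peak of each gene, the farthest just inside were Cdc25c at 7.53 kb in the asynchronous list and Mcm2 at 9.35 kb in the mitotic list.

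Scores at the listed genes were read within each list. The 24 asynchronous peaks had a median score of 12.4 (all peaks, 11.8), and 6 of them (25%) were in the top 25% of ranks, as were 26.5% of all asynchronous peaks. The 10 mitotic peaks ranged from 10.2 to 12.4 with a median of 10.9, the same as over all mitotic peaks, and 9 of them lay within 20% of the lowest score. For scale, Hes1, a known RBPJ target, had 4 asynchronous peaks, the highest with a score of 26.6 (rank 66), and 2 mitotic peaks with scores of 13.1 (rank 298) and 10.9. Scores took discrete values, spaced by 0.422 in the asynchronous list (95.6% of scores within 0.05 of a whole multiple) and by 0.728 in the mitotic list (100%). Each step was picked as the best fit to the same scores, so these percentages do not test it. If 1 step stood for 1 read, which is not stated, the lowest scores would be 24 and 14 reads, with Poisson intervals of 15.4 to 35.7 and 7.65 to 23.5. These Poisson intervals cover counting error only.

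**Figure D4:**
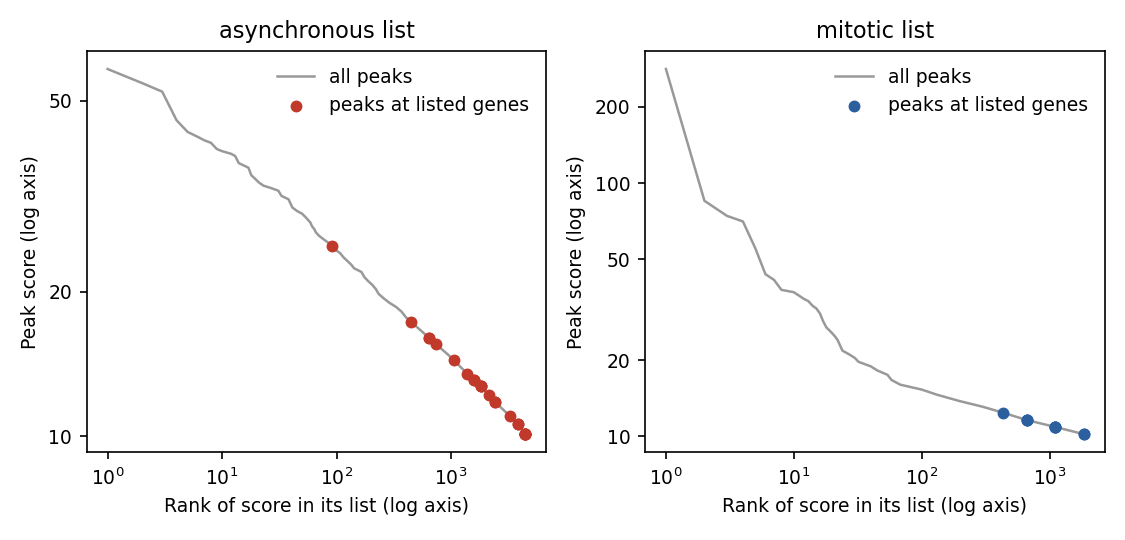
Peak score against rank of score within each list (both axes log), for all peaks (grey line) and the peaks at listed genes (points); tied scores share a rank, so points can coincide. The highest point of the asynchronous list is the Cdk2 peak at 24.9, and the mitotic points lie between 10.2 and 12.4.

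TTCCCACA or TTCCCACG, searched on both strands, was present in 3 of the 24 asynchronous peaks (12.5%, interval 2.66 to 32.4%), those counted for Ccnd3, Cdk6 and Kif23, beside 9.09% of all asynchronous peaks. The shorter TTCCCA was in 8 of 24 (33.3%), beside 35.9% of all asynchronous peaks, and in 2 of the 10 mitotic peaks (20%), beside 25.1% of all mitotic peaks. The longer consensus was in 0 of the 10 mitotic peaks (interval up to 30.8%), beside 3.53% of all mitotic peaks. A 12-base core of the CTCF site with up to 2 mismatches was found in 1 asynchronous peak, at Ccnd1 (beside 11.1% of all), and in 0 mitotic peaks (beside 6.04%). Peaks overlapping the other list made up 3 of 24 asynchronous peaks (12.5%, beside 7.74% of all) and 3 of 10 mitotic peaks (30%, interval 6.67 to 65.2%, beside 12.5%). These were the pairs at Cdk4, Cdkn1b and Mcm7, and the Cdk4 pair was not counted when an overlap of 100 bp was required.

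Promoter windows of 300 bases, from RefSeq (GRCm38.p6), were matched for 40 of the 50 genes, and a gene was counted when any of its windows held the motif; Ccna2, Ccnd1, Ccnd2, Ccne2, Cdc25c, Aurkb, Incenp, Smc4, Rb1 and Wee1 were not matched. The RBPJ consensus was in 1 of 40, that of E2f3 (2.5%), beside 3% of all 27025 genes with a window. TTTGAA, the core of the cell cycle homology region found in many late cell cycle promoters, was in 17 of 40 (42.5%, interval 27 to 59.1%), beside 20.2% of those genes. CCAAT was in 30 of 40 (75%, interval 58.8 to 87.3%), beside 41.1%. The background here was every gene with a window, the listed genes included, and not the other protein-coding genes used elsewhere. Each motif was searched on both strands, and a match describes sequence only.

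A companion list of 100 other cell cycle genes, none of them among the 50, was counted in the same way. The companion genes were not taken out of the other genes they are set beside. An asynchronous peak was present at 40 (interval 30.3 to 50.3%), beside 21.4% of the other genes, and a mitotic peak at 24 (interval 16 to 33.6%), beside 12.4%. Peaks in both lists were found at 17 (interval 10.2 to 25.8%), beside 6.33%. All 3 intervals lay above the background shares at this reach, and no other setting was counted for this list. Of the genes with both, Cdt1, E2f4, Anapc10, Cdc16, Cenpt and Ncapd2 lie on chromosomes 6 and 8. Chromosomes 6, 8 and 12 hold 21.2% of asynchronous peaks, 35.3% of mitotic peaks and 13.2% of protein-coding genes. Their part in these counts was not tested. The companion genes had a longer median span, 28.1 kb, against 15.4 kb for the other genes, so that their windows were wider, and the part of span in these counts was not tested. The 17 genes were Mcm10, Cdt1, Gmnn, Orc1, Chek2, E2f4, Cdkn1c, Anapc5, Anapc10, Cdc16, Smc1a, Ncapd2, Racgap1, Trp53, Mad1l1, Mad2l2 and Cenpt. Every peak counted for Orc1, E2f4 and Mad2l2 was nearest to the start of a neighbouring coding gene. At Anapc5, a subunit of the anaphase-promoting complex, promoter peaks with scores of 21.1 and 12.4 overlapped by 158 bp. At Cdt1, a licensing factor, the overlap was 80 bp and the scores were 21.1 and 15.3. The highest score among these genes was 37.1 (rank 14), in the promoter of the centromere protein gene Cenpt, without an overlapping mitotic peak.

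**Figure D5:**
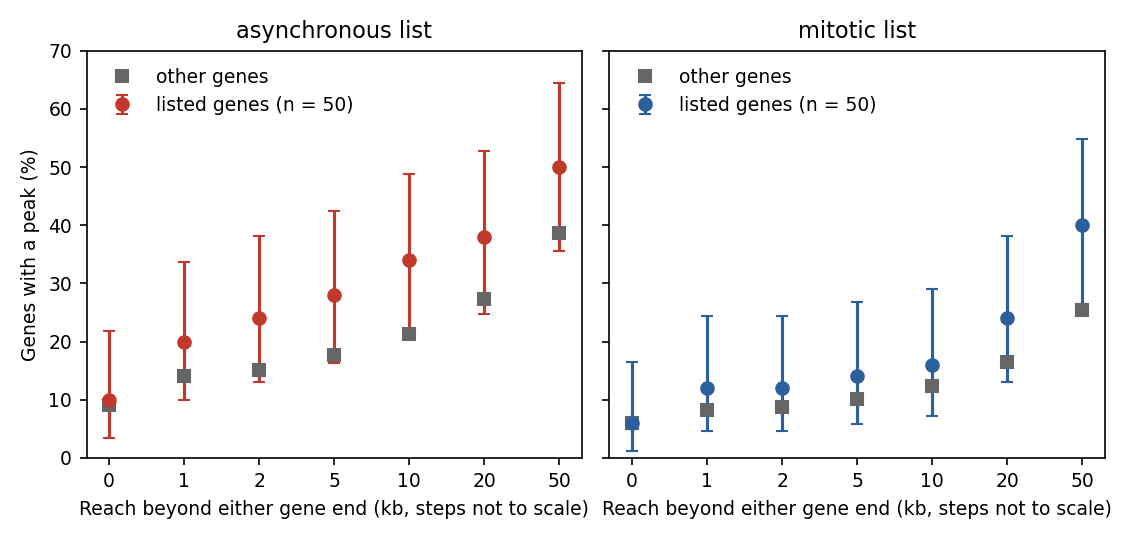
Percentage of genes with a peak as the reach beyond either gene end grows from 0 to 50 kb, for the listed genes (circles, exact 95% intervals) and the other protein-coding genes (squares). The interval of the listed genes included the share of the other genes at each reach, except at 50 kb in the mitotic list (40%, interval 26.4 to 54.8%, beside 25.4%).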

How the data were processed

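RBPJ ChIP-seq peak lists from the first immunoprecipitation of asynchronous and of mitotic F9 cells were used; the second immunoprecipitations, the inputs and the reads were not used here. Per the study's methods and the submitters' processing notes, reads were aligned uniquely to mm9 with Bowtie 0.12.7 (up to 2 mismatches), peaks were called with HOMER against the matching input (FDR 0.001, Poisson p 0.0001), and a cutoff of 1 RPM was applied. The score of each peak is as deposited by the authors, and its scale is not given in the sources used here. Genes were taken from GENCODE vM1 (NCBIM37). Shares were computed with Python 3.11.15 and exact Clopper-Pearson 95% intervals (scipy 1.17.1); no test was made with 1 list per population. Peak classes took promoter, gene end, exon, intron, distal promoter and intergenic in that order. Values were given for all listed genes with a peak, the 3 nearest without one in each list, companion genes with peaks in both lists (some by name only), and Hes1; the other listed genes were named only as having no peak. The members and lists were chosen with earlier results of these data known. The peak assignment was tested on planted peaks.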

Additional observations from a re-analysis of the deposited data

How the results depend on the processing

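No paired analysis was possible because the second immunoprecipitations were not used here, which left 1 list per population and no test. The difference between the listed and the other genes kept its sign in the asynchronous list but fell from 12.6 to 0.94 percentage points with gene spans alone. With that setting it was -0.00985 percentage points in the mitotic list and -0.0511 for both lists; the counts were then 5 asynchronous, 3 mitotic and 1 in both, beside 9.06%, 6.01% and 2.05% of the other genes. The following values are the shares of the other genes in the asynchronous list, the mitotic list and both lists. They were 15%, 8.78% and 3.74% at 2 kb (2 listed genes in both), 17.7%, 10.2% and 4.75% at 5 kb, and 38.7%, 25.4% and 18% at 50 kb (20 listed genes mitotic, 15 in both). Within 10 kb of a transcript start they were 16.9%, 9.13% and 4.25%. With peaks at or above the median score they were 12.5%, 7.77% and 3.19%, with 11 listed genes asynchronous. With the asynchronous list shortened to the mitotic number, 11 listed genes had an asynchronous peak, beside 14.2%, and the other genes with both were 4.73%. The next 5 settings were chosen after seeing the data. Promoters alone gave 7.48%, 2.93% and 1.12% (7 listed genes asynchronous, 2 in both). Without chromosomes 6, 8 and 12, which hold 21.2% of asynchronous and 35.3% of mitotic peaks, the shares were 20.6%, 11% and 5.39%. Without olfactory and vomeronasal receptor genes they were 22.8%, 13.2% and 6.76%. At 1 kb they were 14%, 8.14% and 3.36% (10 listed genes asynchronous, 2 in both), and at 20 kb 27.3%, 16.5% and 9.62% (8 listed genes in both). The count of genes with a peak in at least 1 list was added after seeing the data, and the interval of the listed genes did not include the share of the other genes in 3 of 14 settings, the 10 kb reach by centre, the same reach by any overlap, and promoters alone. The shares of the other genes were 13% with gene spans alone (7 listed genes), 18.8% at 1 kb, 20.1% at 2 kb, 23.1% at 5 kb, 34.2% at 20 kb, 46.1% at 50 kb, 21.8% near transcript starts, 17.1% at or above the median score, 21.9% with the shortened list, 9.29% for promoters (11 listed genes), 26.1% without the 3 chromosomes and 29.2% without the receptor genes. The shorter motif TTCCCA was in 8 asynchronous and 2 mitotic peaks at listed genes (35.9% and 25.1% of all peaks). The CTCF core was in 0 asynchronous peaks with up to 1 mismatch (2.88% of all) and in 3 within 250 bp of the centre (12.5%, beside 15.2% of all), and the RBPJ consensus in 1 mitotic peak within 250 bp (10%, beside 6.6% of all). These windows change by construction how much sequence is counted. The 50 genes and 10 mitotic peaks limit the precision of each share, including the shares given without an interval.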
